A study of Rattus norvegicus with 32 samples.

Results

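The genes described here encode chemokines, interleukins, tumour necrosis factor, interferon gamma and their receptors, read in normal rat mammary gland. A probe set, the group of short oligonucleotides that reads a transcript on an Affymetrix array, was a member if it carried a single gene symbol beginning with Ccl, Ccr, Cxcl, Cxcr, Cx3c or Il and a digit, or was Tnf, Ifng, Tnfrsf11b or Tnfrsf1a. The platelet chemokine gene Pf4 was left out by the rule. In all, 77 probe sets of 53 genes met the rule among the 8799 probe sets of the array. Its probe sets with a single symbol, controls aside, name 4736 genes. The rule used names alone, but it was set with earlier results of these data known. Total RNA of mammary gland came from the hybrid generation (F1) of a Cop and F344 cross, both parent strains, and the inbred strains ACI, WF and BUF/N. Each of these 6 groups had 5 numbered samples, with an array for every sample. A pool of Cop samples and a pool of F344 samples brought the arrays to 32, and the pools are used only as a side comparison. No group carried a treatment or an engineered allele according to the labels, which give the strain and the tissue. Age, sex, stage of the oestrous cycle and batch were not given in the sources used here, nor was it stated that the numbered samples were separate animals. The p-values below therefore measure the spread between these samples, which may be partly technical.

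Chemokines are small secreted proteins that bind G protein-coupled receptors on leukocytes and direct their movement. Interleukins and tumour necrosis factor family members act through other surface receptors, many of which signal through JAK kinases and STAT factors or through NF-kappaB. In the mammary gland, macrophages and eosinophils drawn by such signals take part in the growth of the ducts, and the RANK ligand that osteoprotegerin captures drives the growth of alveolar cells.

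Each value is a signal of the Affymetrix MAS 5.0 software, a background-corrected brightness on a linear scale in arbitrary units, and signals of different probe sets were not ranked against each other. The median signal per array lay between 65.8 and 102.1, highest in ACI 2 and ACI 5. Signals under 18.3, the 25th percentile of all values, were raised to that floor, because their order could not be read. A probe set was tested if at least 5 of the 30 single-sample arrays exceeded the overall median of 78.4. Correlation between arrays of the same group was lowest in F1, at 0.846, and in ACI, at 0.876. F1 2 and F1 3, and ACI 2 and ACI 5, were for that reason also left out in pairs. The glands were measured whole, so fewer cells of a type and less RNA per cell cannot be told apart in anything that follows.

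Of the 77 probe sets, 30 probe sets of 22 genes were bright enough to test and 47 were not. The untested ones left 31 genes without any test. Signals of 8 probe sets were at or under the floor on all 30 arrays. These were Cxcl2 and Cxcl3, chemokines that attract neutrophils, Il7, a growth factor of lymphocytes, Il1rn, the natural antagonist of interleukin 1, and single probe sets of Il1a, Il1r1, Ifng and Il6. The classical inflammatory cytokines were dim throughout. Tnf, the gene of tumour necrosis factor, ranged from 4.1 to 24.8 with 28 arrays at the floor, and the brighter Il6 probe set from 1.2 to 25.5, also with 28 arrays at the floor. Ccl5, a chemokine of T cells, ranged from 4.9 to 25.5. The brighter Ifng probe set reached 49.1. Il1b, the gene of interleukin 1 beta, was above the floor on every array by its brightest probe set, with 30.7 to 79.5, but exceeded the overall median on 1 array. The highest signals of the 4 Il1r1 probe sets, which read the signalling interleukin 1 receptor, were 32.6, 40, 12.2 and 47.4. 

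**Figure D1:**
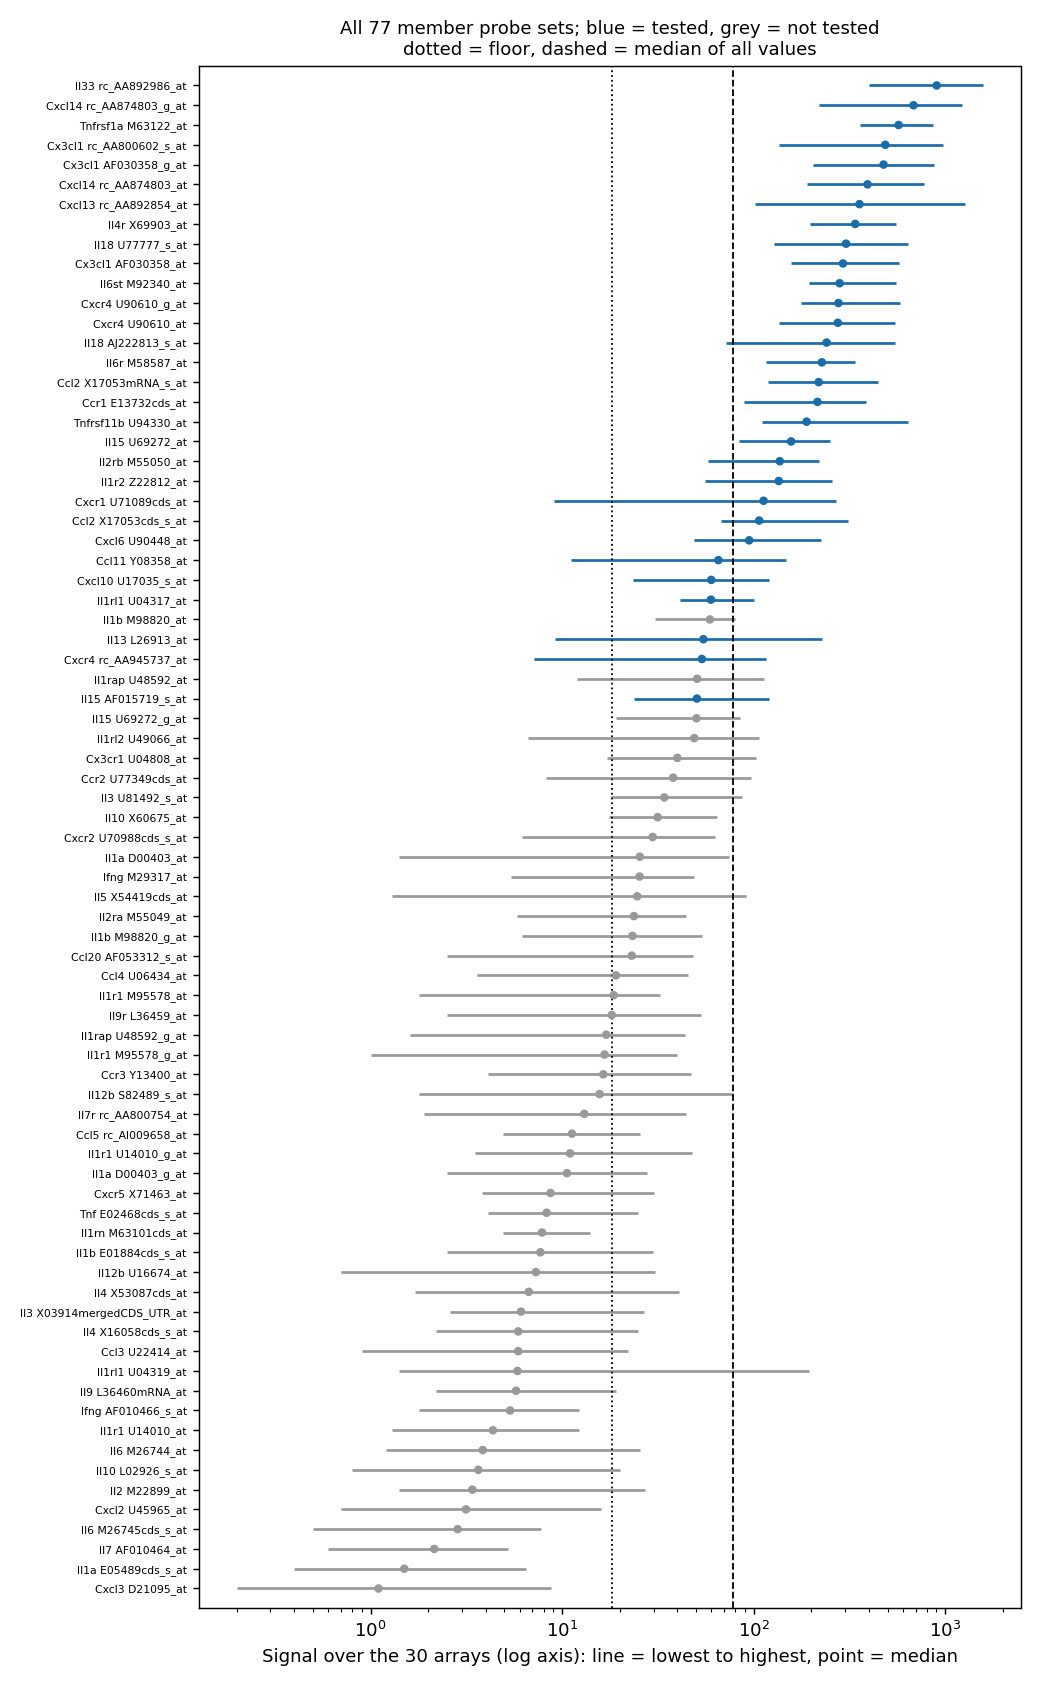
Signal of each of the 77 member probe sets over the 30 single-sample arrays, on a log axis in arbitrary units, with a line from the lowest to the highest array and a point at the median. Blue marks the 30 tested probe sets and grey the 47 others, the dotted line is the floor of 18.3 and the dashed line the overall median of 78.4, so that the grey ranges lie mostly under the dashed line.

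A probe set that was bright in a single group could pass the filter through that group alone, so the counts that follow describe the tested probe sets and not all 77. By the moderated F test of limma, 21 of the 30 tested member probe sets differed among the groups at an adjusted p under 0.05, or 70%, against 51.8% of all 5039 probe sets tested. With no filter on dim probe sets, 20 of the 77 member probe sets passed, a smaller share than the 30.7% of all 8740 probe sets. The median distance between the highest and lowest group mean was 1.05 on the log2 scale for the 30 members and 0.74 for all tested. The highest mean of the 21 lay in F344, ACI, BUF/N or WF for 5 probe sets each, in F1 for 1 and in Cop for none. The lowest mean lay in Cop for 7 and in F1 for 6. ACI and BUF/N held the lowest mean for 3 each, and F344 and WF for 1 each.

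**Figure D2:**
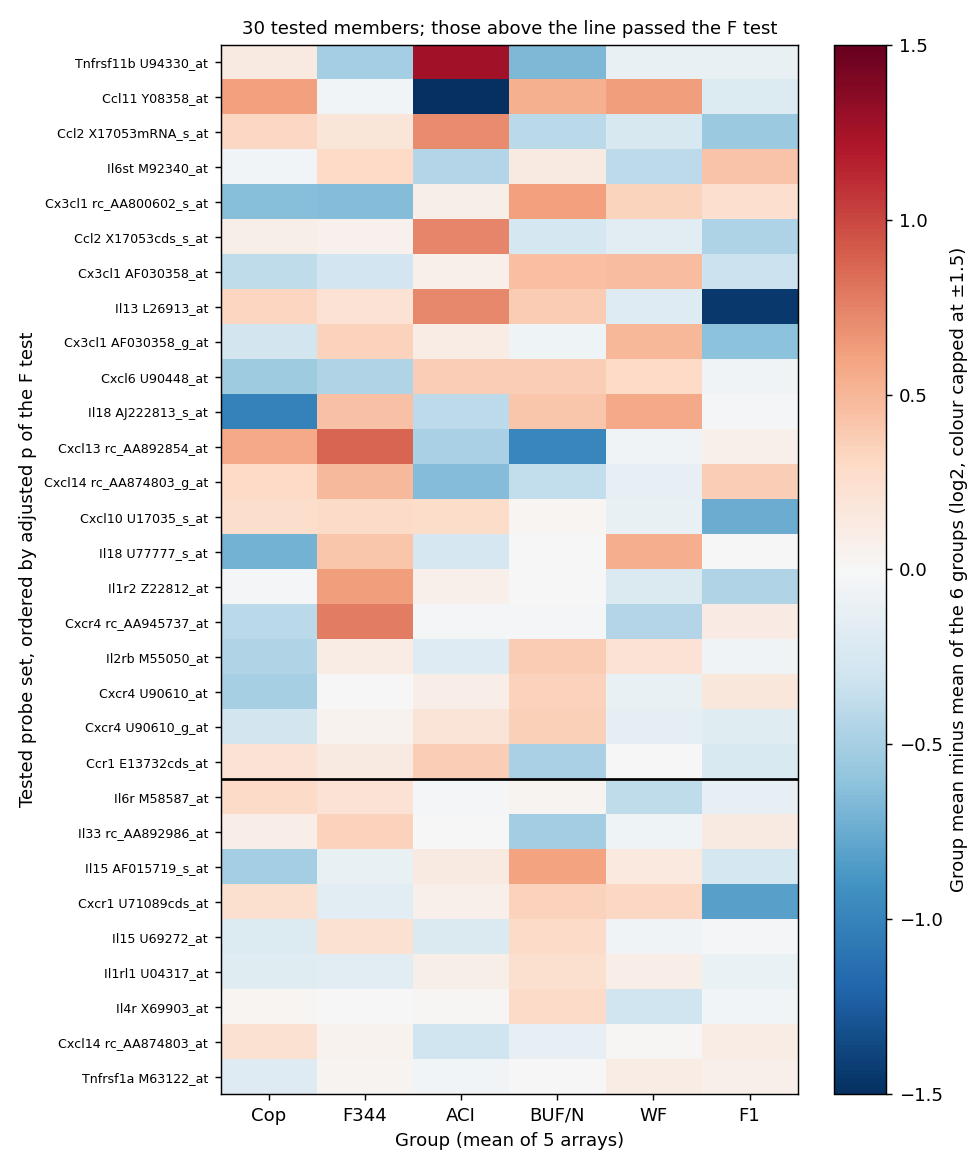
Group mean minus the mean of the 6 groups, in log2 units with colours capped at 1.5 in either direction, for the 30 tested member probe sets in rows and the 6 groups in columns. The line separates the 21 probe sets that passed the F test from the 9 that did not, and the ACI column holds the strongest colours for Tnfrsf11b and Ccl11, in opposite directions.

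Among the CC chemokines, the eosinophil attractant Ccl11 (eotaxin) and the monocyte attractant Ccl2 both differed among the groups. The Ccl11 signal was 17, 25.5, 17.1, 11.1 and 22.7 in the 5 ACI arrays, of which 3 were at or under the floor. In the other inbred strains it was 72.4, 83.8, 124, 100.4 and 82.4 in Cop, 50, 40.3, 73.4, 63.1 and 67.8 in F344, 52.5, 113, 52.1, 104 and 147 in BUF/N and 54.5, 105, 109, 101 and 104 in WF. The F1 arrays gave 71.3, 57.2, 26.7, 56.5 and 59.8. Every ACI array was below every array of the other groups, while each of the other groups overlapped its neighbours in the order of means. Their order from WF through Cop, BUF/N and F344 to F1 had no step between neighbours beyond the spread, with adjusted p from 0.142 to 0.98 (limma). Between groups further apart, Cop was above F1 by 0.82 log2 units without overlap (adjusted p = 0.0365, limma). WF was above F1 by 0.83 with overlap (0.0495). Leaving out an array ended these calls in 4 and 21 of 30 fits. The mean signal was 94.8 ± 22.7 in WF and 18.7 ± 5.6 in ACI (SD, n = 5), and the F test gave an adjusted p of 3.26e-06.

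Ccl2 ran the other way in ACI. By the brighter of its 2 probe sets the ACI signals were 339, 336, 368, 295 and 443. The signals were 374, 303, 218, 269.9 and 210.3 in Cop, 278, 213, 273, 242 and 232 in F344, 253, 192, 129.9, 159.7 and 119 in BUF/N, 159, 219, 135, 224 and 195 in WF and 133, 169, 133, 187 and 124 in F1. All ACI arrays exceeded all F344, BUF/N, WF and F1 arrays, but Cop overlapped ACI, and the step from ACI to Cop was 0.39 log2 units with an adjusted p of 0.214 (limma). The other Ccl2 probe set had the same highest and lowest group, with means of 127 ± 31 in Cop, 123 ± 21.3 in F344, 203 ± 72.3 in ACI, 97.8 ± 14.5 in BUF/N, 104 ± 14.6 in WF and 85.6 ± 14.5 in F1 (SD, n = 5). The adjusted p of the F test was 3.21e-05 for the brighter probe set and 0.000641 for the other. In the RefSeq annotation of build GRCr8 the 2 genes lie close together on chromosome 10, Ccl2 at chr10:67503077-67504875 and Ccl11 at chr10:67525975-67530576.

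The receptors of these ligands were mostly dim. Ccr2, the receptor of Ccl2, ranged from 8.2 to 96.8 and exceeded the overall median on 1 array, and Ccr3, the receptor of Ccl11, never did, with 4.1 to 46.9. Ccr1, which binds Ccl3 and Ccl5, was tested and had means of 237 ± 33.9 in Cop, 224 ± 33.9 in F344, 273 ± 87.1 in ACI, 151 ± 47.8 in BUF/N, 204 ± 36.4 in WF and 185 ± 75.2 in F1 (SD, n = 5). Its F test passed narrowly, with an adjusted p of 0.0475 (limma), and leaving out a single array ended the call in 21 of 30 fits, with adjusted p up to 0.12. With no filter on dim probe sets it was 0.0878.

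Fractalkine, the product of Cx3cl1, is a chemokine anchored to epithelial and endothelial cell surfaces, and 3 probe sets read it. The probe set with the widest range gave 516, 756, 976, 669 and 545 in BUF/N and 562, 533, 621, 488 and 592 in WF. It gave 135, 217, 475, 443 and 295 in Cop and 242, 193, 281, 418 and 314 in F344. ACI arrays read 564, 337, 597, 524 and 372 and F1 arrays 656, 464, 486, 609.7 and 445. BUF/N arrays all exceeded the Cop and F344 arrays, and every WF and F1 array exceeded every F344 array. Another probe set gave means of 235 ± 78 in Cop, 243 ± 42.5 in F344, 310.4 ± 42.3 in ACI, 407 ± 85.2 in BUF/N, 414 ± 105 in WF and 239 ± 54.5 in F1 (SD, n = 5). A further probe set on the same transcript record gave 394 ± 56.2 in Cop, 611 ± 118 in F344, 518 ± 96.7 in ACI, 478 ± 149 in BUF/N, 685 ± 159 in WF and 325 ± 111 in F1 (SD, n = 5). All 3 passed the F test, with adjusted p of 0.000439, 0.00114 and 0.00263 (limma), and WF was high by each. They did not share an order: F344 was the lowest group by the first and was near the top by the last, and F1 was above Cop, F344 and ACI by the first and the lowest by the last. Values for this gene are therefore given by probe set. Its receptor Cx3cr1 ranged from 17.1 to 102.8 and exceeded the overall median on 1 array.

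Cxcl6, which attracts neutrophils, had mean signals of 65.6 ± 10.7 in Cop, 69.1 ± 7.8 in F344, 126 ± 43.7 in ACI, 122 ± 15.3 in BUF/N, 125 ± 60.4 in WF and 92.3 ± 21.9 in F1 (SD, n = 5). ACI, BUF/N and WF were nearly level, and Cop and F344 were lower. The Cop arrays read 49.1, 74.8, 66.1, 75.3 and 62.7 and the F344 arrays 80.1, 74.6, 63.9, 62.6 and 64.5, and no BUF/N or ACI array was as low as the highest of them. The adjusted p of the F test was 0.00371 (limma). Its receptor Cxcr2 was not bright enough to test, with 6.2 to 62.9, and Cxcr1, which binds related ligands, did not pass the F test (adjusted p = 0.14).

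Cxcl13, which draws B lymphocytes, was steady in some groups and scattered in others. It read 549, 627, 497, 709 and 593 in F344 and 486, 538, 462, 404 and 506 in Cop, but 126, 115, 137, 229.8 and 252 in BUF/N. ACI arrays gave 172, 209, 309.9, 125 and 449 and WF arrays 143, 102, 449, 504 and 870.2. F1 arrays gave 262, 1269.5, 268, 252 and 202. F344 and Cop did not overlap BUF/N, whereas WF spanned the range of every inbred strain and the single array F1 2 was the highest of all 30. The F test gave an adjusted p of 0.012 (limma). F1 2 also had the highest summed signal of the leukocyte list, 9334 against 3196 to 5850 in the other F1 arrays, and of the T and NK cell list, 2636 against 963 to 1387. Their part in the Cxcl13 value was not tested. Cxcr5, the receptor of Cxcl13, was at the floor on 27 arrays.

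Cxcl10, an interferon-induced attractant of T cells, was lowest in the hybrid. The F1 arrays read 34.7, 30.6, 41.7, 23.4 and 43, the Cop arrays 119.7, 60.5, 61.5, 73.6 and 46 and the F344 arrays 53.2, 73, 78.8, 86.6 and 60.4. Every F1 array was below every array of both parents. Means were 72.8 ± 24.5 in ACI, 59 ± 11.3 in BUF/N and 54.1 ± 13.1 in WF (SD, n = 5). The adjusted p of the F test was 0.0126 (limma), and it was 0.0868 with the floor raised to the 40th percentile, 47.4, a signal above every F1 array. Cxcl14, a chemokine made by epithelia, was read by 2 probe sets that differed. The probe set that passed the F test gave means of 849 ± 212 in Cop, 947 ± 177 in F344, 457 ± 183 in ACI, 559.7 ± 222 in BUF/N, 643 ± 209.7 in WF and 897 ± 281 in F1 (SD, n = 5, adjusted p = 0.0123), and the other did not pass (adjusted p = 0.642).

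Il18, whose product belongs to the interleukin 1 family and induces interferon gamma, was lowest in Cop by both of its probe sets. The first read 71.8, 72.5, 169, 120.3 and 120 in Cop and 205, 238, 297, 431 and 309.6 in F344. It read 136, 195, 244, 145 and 117 in ACI, 243, 293, 189, 369 and 357 in BUF/N, 282, 544, 141, 336 and 415 in WF and 457, 112, 73.1, 407 and 256 in F1. Cop lay below F344 and BUF/N without overlap, and overlapped ACI, WF and F1. The other probe set read 135, 204, 242, 189 and 186 in Cop and 405, 287, 479, 556 and 374 in F344. It read 128, 376, 284, 202 and 404 in ACI, 275, 314, 173, 414 and 437 in BUF/N, 364, 642, 294, 543 and 475 in WF and 489, 291, 190.1, 501 and 207 in F1. Here Cop lay below F344 and WF without overlap. The adjusted p of the F test was 0.00795 and 0.013 (limma). F1 was scattered by both probe sets, with F1 3 lowest and F1 1 or F1 4 highest.

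Il13, a cytokine of type 2 responses, was at or under the floor on all 5 F1 arrays. They read 9.2, 13.9, 13.6, 9.7 and 14.1. The parental arrays read 73.4, 80, 69.3, 43.9 and 54.3 in Cop and 64.6, 51.4, 36, 96.8 and 57.5 in F344. ACI read 41.7, 226, 46.5, 50.2 and 174, BUF/N 48.8, 55, 97.1, 71.7 and 61.6 and WF 11.6, 63.7, 55.3, 29.2 and 86.2. F1 was below every array of Cop, F344, ACI and BUF/N, and WF 1 was also at the floor. Some untested dim members also had their lowest mean in F1, among them Ccl20 (8.74), Il5 (10.6) and an Il12b probe set (6.92). Others did not, such as an Il1b probe set with its highest mean in F1 (12.4). Array medians were 65.8 to 76.8 in F1, 71.7 to 77.3 in Cop and 68.9 to 77.1 in F344. Whether dim probe sets read low in F1 in general was not tested. ACI was at least 4.51-fold above F1, with F1 set to the floor, and at least 2.51-fold above it without ACI 2 and ACI 5, the highest ACI arrays. The F test gave an adjusted p of 0.00134 (limma), and 0.306 with the floor raised to 47.4, a signal near or above many of these values. The other tested interleukins did not pass the F test. Il33, an alarm signal of epithelial and endothelial cells, had an adjusted p of 0.0823, or 0.0187 with each array centred on its median, and the 2 tested probe sets of Il15, which sustains NK cells, had 0.108 and 0.247.

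Among the receptors that pass a signal into the cell, Il6st, the gp130 chain shared by the interleukin 6 family, had the smallest F test p-value. Means were 285 ± 22.4 in Cop, 363 ± 51.8 in F344, 217 ± 29.7 in ACI, 327 ± 62.6 in BUF/N, 225 ± 28.3 in WF and 402 ± 88.8 in F1 (SD, n = 5, adjusted p = 5.61e-05, limma). The F1 arrays read 349, 555, 371, 336 and 398 and the ACI arrays 214, 195, 267, 216 and 193, without overlap. F344 and BUF/N stood next to F1, and WF next to ACI, with overlap between these neighbours. The partner chain Il6r, which binds interleukin 6 itself, had its highest mean in Cop and its lowest in WF, 270.3 ± 41.6 and 174 ± 47.3 (SD, n = 5), and an adjusted p of 0.0755. It passed under quantile normalization (0.0287) and with each array centred on its median (0.00923).

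Il1r2, a decoy receptor that captures interleukin 1, was high in F344. The F344 arrays read 192, 211, 176, 199 and 238 and the F1 arrays 102, 64.7, 62.5, 152 and 133. Apart from ACI 2, at 256, every array outside F344 was below every F344 array. Means elsewhere were 130 ± 18.2 in Cop, 147 ± 61.7 in ACI, 131 ± 17.1 in BUF/N and 119 ± 37.2 in WF (SD, n = 5). The adjusted p of the F test was 0.02 (limma), and 0.0565 without F344 5. In pairs by limma, F344 was above F1 by 1.07 log2 units (adjusted p = 0.00255) and above WF by 0.85 (0.0303). It was not called against ACI (0.55, adjusted p = 0.157) or BUF/N (0.63, 0.0702). Cop against F344 was -0.65 (0.215).

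Cxcr4, the receptor of Cxcl12, had 3 probe sets, of which 2 shared a transcript record and had their lowest mean in Cop and their highest in BUF/N. They gave 205 ± 41.8 and 235 ± 51 in Cop against 370.2 ± 104 and 369.9 ± 125 in BUF/N (SD, n = 5). The remaining probe set was highest in F344, with 79.9, 88.1, 93, 117 and 66.9, against 36.8, 44, 38.6, 24 and 57.9 in Cop. Outside F344 it exceeded the overall median only in F1 4 (95.6) and BUF/N 3 (80.9). It therefore passed the filter through the group where it was highest, and its F344 differences are descriptions. Adjusted p of the F test were 0.0412, 0.0438 and 0.0283 (limma). These calls were fragile. Leaving out a single array ended the first in 11 of 30 fits, with adjusted p up to 0.13, and the next in 20, up to 0.0923. The last ended without F344 2, F344 3 or F344 4, at 0.0573, 0.0621 and 0.0828. With no filter on dim probe sets the first 2 had adjusted p of 0.0734 and 0.0642.

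Il2rb, a chain shared by the receptors of interleukin 2 and interleukin 15, ranged from a mean of 98.4 ± 30 in Cop to 169.9 ± 30.8 in BUF/N (SD, n = 5). Its F test passed with an adjusted p of 0.033 (limma), but not without Cop 4 (0.0842), Cop 5 (0.068), BUF/N 3 (0.0502) or BUF/N 4 (0.0669), nor with no filter on dim probe sets (0.0549). Il4r, the receptor chain of interleukin 4 and interleukin 13, and Tnfrsf1a, the main receptor of tumour necrosis factor, were bright in all groups and did not pass, with adjusted p of 0.481 and 0.792. Group means of Tnfrsf1a lay between 494 and 628.

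Tnfrsf11b encodes osteoprotegerin, a soluble decoy that binds RANK ligand, and had the smallest F test p-value of the family. The ACI arrays read 638, 454, 468, 569 and 502. The other inbred strains read 265, 196, 202, 265 and 277 in Cop, 235, 184, 182, 253 and 166 in WF, 181, 159.9, 141, 141 and 144 in F344 and 176, 126, 131, 148 and 111 in BUF/N. The F1 arrays read 176, 194, 176, 267 and 208. The lowest ACI array was well above the highest array of any other group. Below ACI, Cop and F1 overlapped, as did F1 and WF, and the order ended with F344 and BUF/N. ACI stood 1.13 log2 units above Cop, its nearest neighbour (adjusted p = 1.9e-05), and 1.94 above BUF/N, or 3.84-fold. The F test gave an adjusted p of 1.55e-09 (limma).

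Il1rl1, the receptor of interleukin 33, has 2 probe sets. The tested one did not pass the F test (adjusted p = 0.439). The other was too dim to be tested, with 4 arrays above the overall median, and is described because of its values. It read 151, 114, 55.6, 196 and 94.6 in ACI. It read 5, 33.2, 6.5, 61.1 and 20.6 in WF and 3.1, 14, 7.1, 6.1 and 28.3 in Cop. The F344, BUF/N and F1 arrays were all under the floor, and WF 4 alone outside ACI exceeded the lowest ACI array. Because the probe set was chosen for this pattern, its values are a description without a test. With those 3 groups at the floor, ACI was at least 6.12-fold higher than each. The receptor is known from mast cells, whose summed markers ranged from 2642 to 3362 in ACI, 2756 to 3615 in Cop, 2346 to 2679 in F344, 1332 to 2111 in BUF/N, 2536 to 3381 in WF and 2610 to 3360 in F1. Of 5 tested mast cell genes, 2 were higher and none lower in ACI than in the other 4 inbred strains, with a median of 0.09 log2 units. The shares over all probe sets tested were 4.23% and 4.35%. The count was not particular to ACI. In WF 2 were also higher and none lower (median 0.29), and in Cop 2 were higher and 1 lower (median 0.29). None was higher in F344 or BUF/N, where 1 and 2 were lower. The part of mast cells in the Il1rl1 signal was not tested.

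Each inbred strain was then set against the mean of the other 4. Among these comparisons, ACI had the largest single differences. Of 30 tested members, 3 were higher and 2 lower in ACI, against 4.23% and 4.35% of all probe sets tested. Tnfrsf11b was higher by 1.55 log2 units (SE 0.124, adjusted p = 3.15e-10), and Ccl2 by 0.74 (SE 0.153, adjusted p = 0.0021) and 0.80 (SE 0.164, adjusted p = 0.00205) by its 2 probe sets. Ccl11 differed by -1.97 (SE 0.229, adjusted p = 4.62e-07) and Il6st by -0.44 (SE 0.119, adjusted p = 0.0178). The Il6st call ended without ACI 2 (adjusted p = 0.0826) or ACI 5 (0.0763). Without both ACI 2 and ACI 5, the Ccl2 differences were 0.65 and 0.48, with adjusted p of 0.0642 and 0.178. The size of the Ccl11 difference depends on the floor, since 3 ACI arrays were raised to it, and was -0.77 (adjusted p = 0.008) with the floor at 47.4. Among cell type markers, 2 of 6 macrophage, 2 of 4 red cell and 2 of 12 adipocyte genes were lower in ACI, and their part in the member differences was not tested.

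**Figure D3:**
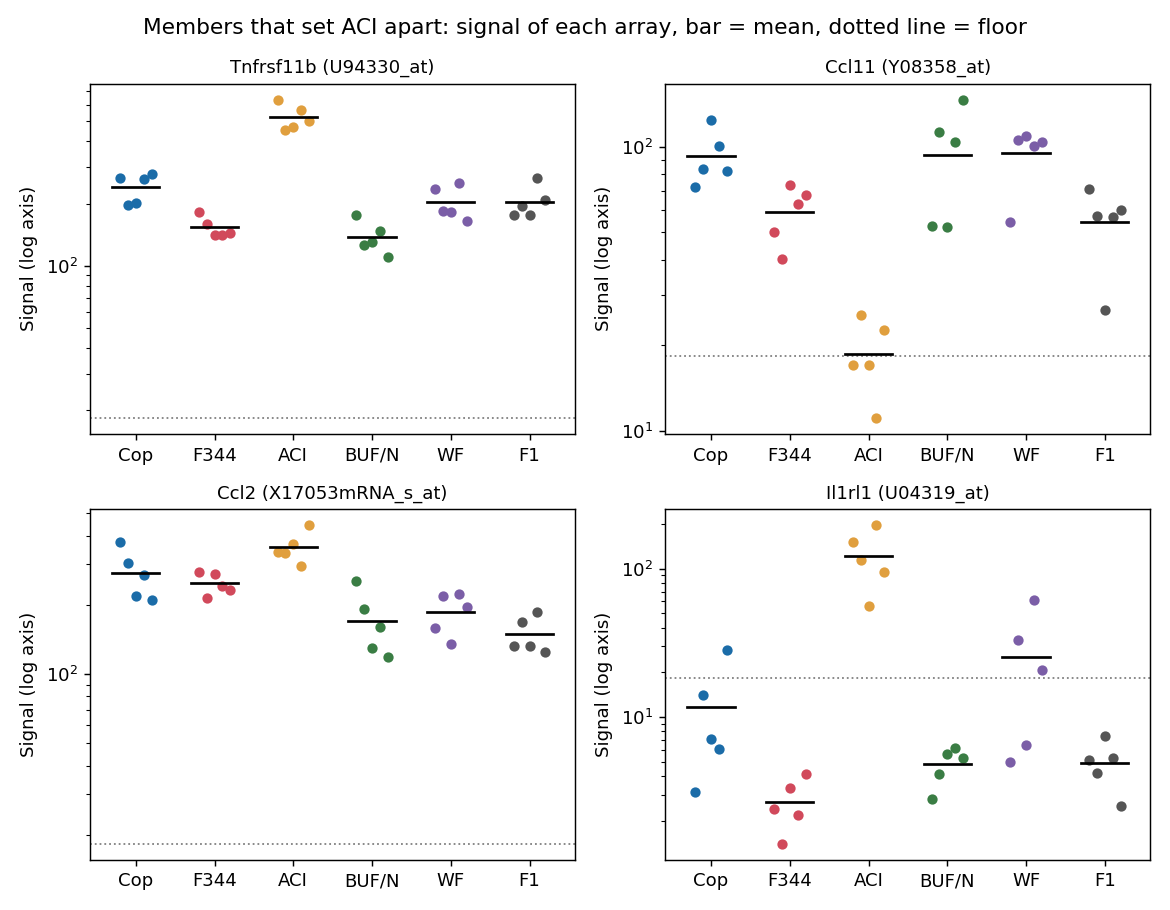
Signal of Tnfrsf11b, Ccl11, the brighter Ccl2 probe set and the untested Il1rl1 probe set on each of the 30 arrays, by group, on a log axis in arbitrary units, with a bar at each group mean and a dotted line at the floor of 18.3. ACI arrays lie above all others for Tnfrsf11b and below all others for Ccl11, while for Ccl2 they overlap Cop and for Il1rl1 they overlap WF 4.

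The calls in Cop were mainly low members, several of them as low in another strain. Against the other 4 inbred strains, 7 of 30 tested members were lower in Cop and 1 was higher, against 6.21% and 5.54% of all probe sets tested. Il18 differed by -1.27 log2 units (SE 0.309, adjusted p = 0.00599) and -0.88 (SE 0.244, adjusted p = 0.0155) by its 2 probe sets. Cx3cl1 differed by -0.73 (SE 0.203, adjusted p = 0.0162) and -0.56 (SE 0.163, adjusted p = 0.0224) by 2 of its probe sets, and by -0.50 with an adjusted p of 0.0753 by the other. Cxcl6 differed by -0.68 (SE 0.192, adjusted p = 0.0186), Il2rb by -0.58 (SE 0.181, adjusted p = 0.033) and a Cxcr4 probe set by -0.58 (SE 0.181, adjusted p = 0.0336). By limma, Cop against F344 was -0.09 for Cxcl6 (adjusted p = 0.938) and 0.02 and -0.1 for the 2 called Cx3cl1 probe sets (0.99 and 0.913). For Il18, Cop against ACI was -0.62 and -0.45 (0.347 and 0.391). Among the inbred pairs, Il2rb and this Cxcr4 probe set were called only against BUF/N, by -0.83 (0.0093) and -0.84 (0.0081). Il2rb in Cop differed by -0.57 from F344 (0.228), -0.26 from ACI (0.521) and -0.67 from WF (0.0503). The Cxcr4 probe set differed by -0.49 from F344 (0.324), -0.6 from ACI (0.107) and -0.39 from WF (0.298). The single higher member against the mean of the other 4 was Ccl11, by 0.72 (SE 0.229, adjusted p = 0.0368). That mean includes ACI, where Ccl11 was lowest. In pairs, Ccl11 in Cop differed by 2.16 from ACI (adjusted p = 1.38e-05, limma). It differed by 0.66 from F344 (0.28), 0.08 from BUF/N (0.865) and -0.02 from WF (0.98). Of the 8 calls in Cop, only the first Il18 probe set kept its call in all 30 fits that left out an array. Leaving out Cop 1 ended the other Il18 probe set (adjusted p = 0.0833), both Cx3cl1 probe sets (0.154 and 0.14), Cxcl6 (0.0963), Il2rb (0.0678) and Cxcr4 (0.186). The calls also ended without Cop 2 for Cx3cl1 (0.0754) and Ccl11 (0.0671), Cop 3 for Cxcr4 (0.052) and Ccl11 (0.122), Cop 4 for Cxcr4 (0.0708), Il2rb (0.195) and Ccl11 (0.0985), Cop 5 for Cx3cl1 (0.106), Il2rb (0.0901) and Ccl11 (0.0587), and F344 2 for Ccl11 (0.0502). With no filter on dim probe sets Ccl11 (0.0532), Il2rb (0.0537) and Cxcr4 (0.0599) did not pass, and with each array centred on its median Il2rb (0.0951), Cxcr4 (0.0502) and the first Cx3cl1 probe set (0.0542) did not.

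Markers of luminal epithelium were low in Cop too. All 8 tested luminal genes were lower in Cop than in the other 4 inbred strains, with a median of -0.95 log2 units, and their summed signal was 2622 to 4836 in Cop, 4900 to 6884 in F344, 4364 to 6871 in ACI, 7418 to 8959 in BUF/N, 7268 to 9115 in WF and 5297 to 8473 in F1. Basal and smooth muscle genes were lower in Cop for 5 of 8, macrophage genes higher for 3 of 6 and adipocyte genes higher for 4 of 12. The part of cell content in the low Il18, Cx3cl1 and Cxcl6 signals of Cop was not tested.

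For the 3 ligand genes that were low in Cop, promoter stretches of 250 bases from RefSeq build GRCr8 are printed, strand as transcribed. They are shown because the genes were low together. Those of Cxcl6 and Il18 end at the base before the start of the gene. The Cx3cl1 stretch, from 10242821 to 10243070, lies inside the annotated gene, which spans 10233326 to 10244856. The bases before the start of that span are not shown for Cx3cl1. Capitals mark a match to an NF-kappaB motif, GGGA, any base and TTTCC in a row.
Cx3cl1, chr19:10242821-10243070: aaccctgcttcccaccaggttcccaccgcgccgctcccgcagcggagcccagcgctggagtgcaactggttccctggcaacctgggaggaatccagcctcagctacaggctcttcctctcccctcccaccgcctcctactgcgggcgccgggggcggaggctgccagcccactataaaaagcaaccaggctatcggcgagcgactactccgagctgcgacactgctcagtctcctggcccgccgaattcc
Cxcl6, chr14:17596418-17596667: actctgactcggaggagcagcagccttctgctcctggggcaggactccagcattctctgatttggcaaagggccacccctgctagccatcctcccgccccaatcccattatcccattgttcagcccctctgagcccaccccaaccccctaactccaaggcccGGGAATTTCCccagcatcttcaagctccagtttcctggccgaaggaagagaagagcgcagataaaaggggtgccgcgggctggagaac
Il18, chr8:59801822-59802071: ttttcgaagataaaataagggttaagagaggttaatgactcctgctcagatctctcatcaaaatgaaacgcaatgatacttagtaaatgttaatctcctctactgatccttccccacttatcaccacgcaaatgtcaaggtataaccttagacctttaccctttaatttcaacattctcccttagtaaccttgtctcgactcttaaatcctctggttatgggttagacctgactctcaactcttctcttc
Cx3cl1 and Cxcl6 lie on the minus strand and Il18 on the plus strand. The promoter table held 16 of the 22 tested member genes. Among these, Cxcl6 alone held the NF-kappaB motif, searched on both strands, 88 to 79 bases before the start, against 0.314% of all 33469 promoters. The STAT motif TTCNNNGAA was found in none of the 16 and in 7.67% of all, and the AP-1 motif TGANTCA in Cxcl10, Cxcl14 and Il15 and in 6.34% of all. These are matches of letters and were not related to binding.

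**Figure D4:**
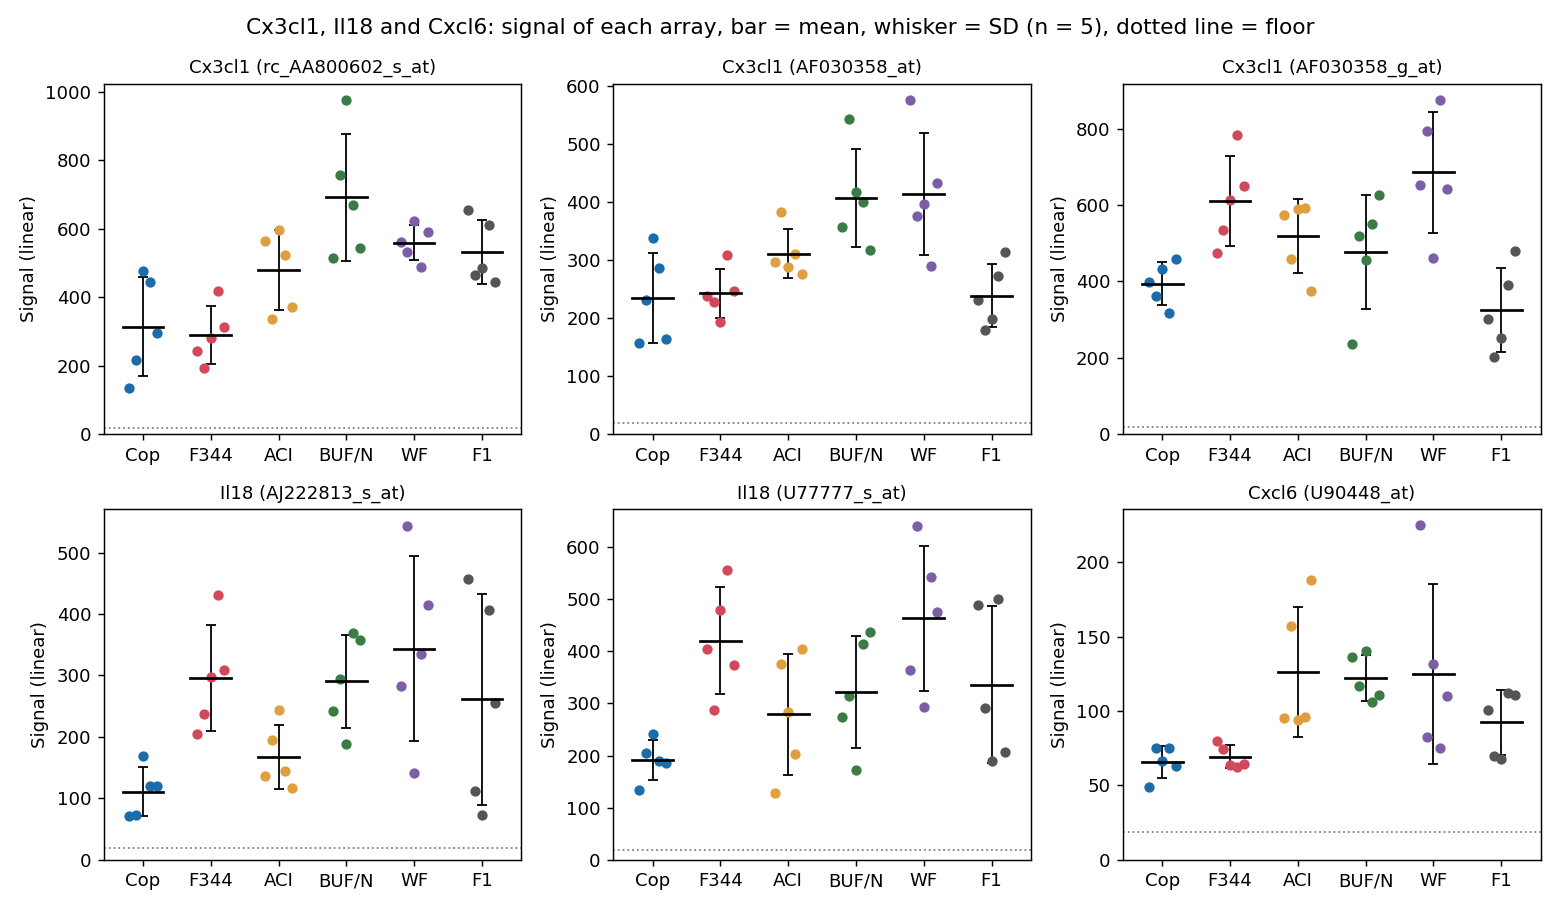
Signal in arbitrary units, on a linear axis from 0, of the 3 Cx3cl1 probe sets, the 2 Il18 probe sets and Cxcl6 on each of the 30 arrays by group, with a bar at the mean, a whisker of SD (n = 5) and a dotted line at the floor. Cop arrays sit low in the Il18 and Cxcl6 panels, as F344 arrays do for Cxcl6, while the 3 Cx3cl1 panels order the other groups differently.

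In F344, 4 members were higher and 3 lower than in the other 4 inbred strains, against 4.41% and 7.92% of all probe sets tested. The higher ones were Il6st by 0.48 log2 units (SE 0.119, adjusted p = 0.00792), Il1r2 by 0.67 (SE 0.203, adjusted p = 0.0286), Cxcl13 by 1.12 (SE 0.361, adjusted p = 0.0402) and a Cxcr4 probe set by 0.99 (SE 0.261, adjusted p = 0.0123). That Cxcr4 probe set passed the filter through its F344 arrays, so its value is a description, and the other 2 Cxcr4 probe sets differed by 0.03 and 0.02. Tnfrsf11b differed by -0.66 (SE 0.124, adjusted p = 6e-04), a Cx3cl1 probe set by -0.75 (SE 0.203, adjusted p = 0.0146) and Cxcl6 by -0.57 (SE 0.192, adjusted p = 0.048). The mean for Tnfrsf11b includes the high ACI arrays. In pairs, Tnfrsf11b in F344 differed by -1.77 from ACI (adjusted p = 3.14e-09, limma), -0.4 from WF (0.0983) and 0.16 from BUF/N (0.474). Cop was above F344 by 0.64 (0.015). Single arrays decided several of the F344 calls. Cxcl6 lost its call in 19 of 30 such fits, with adjusted p up to 0.128, and Cx3cl1 without F344 2 (0.0765). Il1r2 lost it without F344 1 (0.0519), F344 2 (0.0723), F344 4 (0.057) or F344 5 (0.106), and Cxcl13 when any F344 array was left out (0.0681, 0.0884, 0.0691, 0.0905 and 0.0991), and without Cop 4 (0.0505), BUF/N 1 (0.0511) or BUF/N 3 (0.0516). With no filter on dim probe sets Cxcl13 (0.0847), Cxcl6 (0.0714) and Il1r2 (0.0515) did not pass, and with each array centred on its median Cx3cl1 (0.0619) and Cxcl6 (0.0859) did not. Skeletal muscle markers were higher in F344 for 7 of 12 tested genes, with a median of 2.28 log2 units, red cell markers were higher for 2 of 4, and basal and smooth muscle markers were lower for 3 of 8. Summed skeletal muscle signals were 5414 to 28000 in F344, 697 to 25201 in Cop, 2068 to 13413 in ACI, 708 to 7019 in BUF/N, 696 to 9806 in WF and 324 to 3532 in F1. Their part in the F344 differences was not tested.

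In BUF/N, 2 members were higher and 5 lower, against 8.43% and 9.61% of all probe sets tested. Both higher probe sets read Cx3cl1, by 0.83 log2 units (SE 0.203, adjusted p = 0.00517) and 0.48 (SE 0.163, adjusted p = 0.0369), whereas the remaining Cx3cl1 probe set differed by -0.23 (adjusted p = 0.394). Tnfrsf11b differed by -0.87 (SE 0.124, adjusted p = 1.75e-05), the brighter Ccl2 probe set by -0.64 (SE 0.153, adjusted p = 0.00435), Cxcl13 by -1.21 (SE 0.361, adjusted p = 0.0194), Ccr1 by -0.66 (SE 0.2, adjusted p = 0.0206) and Il33 by -0.62 (SE 0.204, adjusted p = 0.0336). The mean for Tnfrsf11b includes the high ACI arrays. In pairs by limma, ACI was above BUF/N by 1.94 (adjusted p = 3.09e-10) and Cop by 0.8 (0.000419). For Tnfrsf11b, BUF/N against WF was -0.56 (0.0554) and F344 against BUF/N was 0.16 (0.474). The weaker Cx3cl1 call ended without BUF/N 1 (0.0516), BUF/N 2 (0.147), BUF/N 3 (0.0939) or BUF/N 4 (0.0762), and Cxcl13 without BUF/N 1 (0.0608), BUF/N 2 (0.0656) or BUF/N 3 (0.0646). Ccr1 ended without BUF/N 2 (0.106) or BUF/N 3 (0.0873), and Il33 without BUF/N 1 or BUF/N 3 (0.0826 each) or BUF/N 4 (0.145). With no filter the weaker Cx3cl1 call (0.0592) and Il33 (0.0661) did not pass. Of 6 tested macrophage genes, 2 were lower and 1 higher in BUF/N, and their summed signal was 4543 to 6452 there, 6005 to 7270 in Cop, 5964 to 7423 in F344, 3663 to 6455 in ACI, 4315 to 5693 in WF and 6344 to 7698 in F1. Luminal epithelial genes were higher in BUF/N for 6 of 8, with a median of 0.60, mast cell genes lower for 2 of 5 and adipocyte genes lower for 4 of 12. B cell genes were higher for 1 of 2. The part of these cells in the BUF/N differences was not tested.

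WF had the fewest calls of the inbred strains, among members and also over all probe sets tested (6.17% in either direction). Ccl11 was the only called member, higher by 0.74 log2 units (SE 0.229, adjusted p = 0.0493). That is 3.33% of the tested members, against 3.37% of all probe sets tested that were higher, so the member count was at the background. Leaving out an array ended that call in 24 of 30 fits, with adjusted p up to 0.165, and so did other settings given in the closing section. The mean of the other strains includes ACI, where Ccl11 was lowest, and in pairs of inbred strains WF was clearly above ACI only. By limma the Ccl11 difference was -2.17 for ACI against WF (adjusted p = 5.97e-06). It was -0.68 for F344 against WF (0.132), -0.02 for Cop against WF (0.98) and -0.1 for BUF/N against WF (0.962). By limma no member was lower in WF, against 2.8% of all probe sets, with 3 members at an unadjusted p under 0.05. Between BUF/N and WF no member was called in either direction, against 2.22% of all probe sets, and 5 members had an unadjusted p under 0.05.

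The hybrid was set against the mean of its parents. In F1, 1 member was higher and 6 were lower, against 17.4% and 17.8% of all probe sets tested, so the share of lower members was near the background. Il13 differed by -1.72 log2 units (SE 0.357, adjusted p = 0.000553), a value that depends on the floor. With the floor at 47.4 it was -0.40 with an adjusted p of 0.281. Cxcl10 differed by -1.02 (SE 0.234, adjusted p = 0.00134), Ccl2 by -0.81 (SE 0.167, adjusted p = 0.000553) and -0.53 (SE 0.18, adjusted p = 0.0209), and Il1r2 by -0.74 (SE 0.223, adjusted p = 0.0103). The brighter Ccl2 probe set was below both parents, with no overlap with Cop or F344, by 0.87 (adjusted p = 0.00155) and 0.74 log2 units (adjusted p = 0.00467). Cx3cl1 went both ways. The widest-ranging probe set was higher by 0.90 (SE 0.223, adjusted p = 0.00259) and another differed by -0.64 (SE 0.202, adjusted p = 0.0143). F1 3 ended the calls of the dimmer Ccl2 probe set (adjusted p = 0.08 without it), of the low Cx3cl1 probe set (0.0526) and of Il1r2 (0.0581), and F1 2 ended the last 2 (0.0805 and 0.0546). Without both F1 2 and F1 3 these 3 had adjusted p of 0.176, 0.288 and 0.307. The dimmer Ccl2 probe set also missed the threshold with array weights (0.0977). With the floor at 47.4 the Cxcl10 difference was -0.54 (adjusted p = 0.022). Cell type markers moved in the same comparison. Skeletal muscle genes were lower in F1 for 10 of 12, with a median of -2.67 log2 units, and adipocyte genes lower for 6 of 12 and higher for 1. Luminal genes were higher for 6 of 8, basal and smooth muscle genes for 6 of 8 and fibroblast genes for 5 of 9, while endothelial genes were lower for 2 of 3. Summed luminal signals were 5297 to 8473 in F1, 2622 to 4836 in Cop and 4900 to 6884 in F344, and summed basal and smooth muscle signals were 9714 to 12896, 5128 to 7798 and 6308 to 7633. Their part in the F1 differences was not tested.

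Between the parents, Cop and F344, 1 member was higher in Cop and 3 were lower, against 1.69% and 1.77% of all probe sets tested. Tnfrsf11b was higher in Cop by 0.64 log2 units (SE 0.157, adjusted p = 0.015). Il18 differed by -1.45 (SE 0.391, adjusted p = 0.031) and -1.13 (SE 0.308, adjusted p = 0.0337), and a Cxcr4 probe set by -1.18 (SE 0.331, adjusted p = 0.0402). The 5 arrays of Cop and the 5 of F344 did not overlap for any of these 4 probe sets. The Cxcr4 probe set passed the filter through its F344 arrays, so its difference is a description. The pooled arrays, which were not in the fit, read 207 in Cop and 154 in F344 for Tnfrsf11b, 142 and 319.5 and then 168 and 386 for Il18, and 40.7 and 73.4 for Cxcr4, each in the same direction. Over the 30 tested members the pools had the sign of the fitted difference for 25. The share over all probe sets tested was not counted, for this sign or for the lack of overlap. Whether the pools shared RNA with the single samples was not given in the sources used here. Tnfrsf11b kept its call in all 30 fits that left out an array. The first Il18 call ended without Cop 1 (adjusted p = 0.0894), Cop 2 (0.102), Cop 4 (0.0522), F344 3 (0.0571), F344 4 (0.104) or F344 5 (0.0716). The other ended without Cop 1 (0.102), Cop 2 (0.0635), Cop 4 (0.0725), Cop 5 (0.0597), F344 1 (0.0681), F344 3 (0.0778), F344 4 (0.11) or F344 5 (0.0614), and Cxcr4 when any F344 array or any Cop array but Cop 5 was left out (0.0501 to 0.155). With no filter on dim probe sets, which adds tests, the Il18 differences had adjusted p of 0.0798 and 0.08 and the Cxcr4 difference 0.0634.

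Genes through which these receptors signal were counted from lists chosen by name. Of 11 tested JAK and STAT signalling genes, 5 passed the F test, among them Stat5a, which carries prolactin signals, with means from 191 in Cop to 320 in F1, and Stat3, from 50.3 in F1 to 146 in WF. None of 3 tested NF-kappaB and adaptor genes passed by limma, with 0 at an unadjusted p under 0.05. The smallest adjusted p were those of the adaptor Traf2 (0.11) and of Nfkb1 (0.123). None of 3 other TNF family genes passed either, with 0 at an unadjusted p under 0.05, and the smallest adjusted p were those of Cd40 (0.105) and Tnfsf13 (0.443). Of 13 interferon receptor and target genes, 6 passed, led by the immunoproteasome subunit Psmb8, with means from 474 in ACI to 982 in BUF/N, and by the interferon regulatory factor Irf3, from 264 in Cop to 601 in F1. Of 14 acute phase and cytokine-induced genes, 12 passed. Lcn2, which binds iron carriers of bacteria, was 72.3 ± 20.3 in F344 and 75.2 ± 37.4 in ACI against 2740 ± 1240 in BUF/N (SD, n = 5), and Lbp, which binds bacterial lipopolysaccharide, ranged from a mean of 166 in Cop to 911 in BUF/N. Of 6 tested colony stimulating factor and gp130 family genes 2 passed, the growth factor receptor Kit, which is on the mast cell list as well, and its ligand Kitlg, both lowest in Cop. These shares stand beside 51.8% of all probe sets tested.

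Few lymphocyte markers differed among the groups. None of 9 tested T and NK cell genes and none of 2 B cell genes passed the F test by limma, with 1 in each list at an unadjusted p under 0.05, and 1 of 6 general leukocyte genes did. Against the other 4 inbred strains, 1 of 2 B cell genes was higher in BUF/N, with a list median of 0.89 log2 units. In Cop, 1 of 9 T and NK cell genes was lower. The shares over all probe sets tested were 8.43% and 6.21%. Of 6 macrophage genes 5 passed, and of 5 mast cell genes 4. No neutrophil marker was bright enough to test, and the summed signal of the 3 on the array was 8 to 66. Markers of adipocytes passed for 9 of 12 tested genes, of luminal epithelium for 8 of 8, of basal and smooth muscle cells for 6 of 8, of fibroblasts for 6 of 9, of endothelium for 2 of 3 and of red cells for 3 of 4. Skeletal muscle markers passed for 12 of 12 tested genes. The part of cell content in the member differences was not tested beyond the values given.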

How the data were processed

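The deposited values were signal intensities on a linear scale, 1 per probe set and array, made by the authors with Affymetrix MAS version 5.0 from biotin-labelled cRNA of total RNA, per the labels' protocols. The means of the arrays, trimmed by 2% at each end, lay between 250.3 and 250.4, so the arrays had been scaled to a common level; the build and probe annotation used by the authors were not given in the sources used here. Of 8799 probe sets, 59 were controls, 7018 carried 1 gene symbol in the platform annotation, 308 several and 1473 none. All 77 members matched the RefSeq table by identifier. The labels' replicate numbers were not used to pair samples.

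Signals were floored at the 25th percentile (18.3), log2-transformed and fitted with limma 3.58.1 in R 4.3.3 on the 30 single-sample arrays, with eBayes and a variance trend. In all, 5039 probe sets with at least 5 arrays above the overall median were tested, with Benjamini-Hochberg adjustment within each contrast and a threshold of 0.05. The number of arrays, 5 per group, limits the precision. On simulated data the fit recovered 52.2%, 89.6% and 100% of changes of 1.5-fold, 2-fold and 4-fold in the ACI comparison. By the F test it recovered 25.4%, 71.6% and 97%. The changes were placed in 67, 67 and 66 brighter probe sets among 4993 tested, with noise of equal size in every group. These rates do not cover dim members such as Il13 and Ccl11, nor a group with wider spread. The 200 changed probe sets were also a far smaller share than the 51.8% that passed the F test in the data. Because the adjustment depends on that share, these rates do not give the recovery of the reported F tests.

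Named members were the 16 probe sets with the smallest F test p-value, those of 19 preset genes, the other probe sets of these genes, and members behind small counts. The members and lists were chosen with earlier results of these data known. Alternatives covered the floor, filter, scaling, trend, weights, replicate number as a block and samples left out. Control probe sets, 2 of which carry member symbols, were left out.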

Additional observations from a re-analysis of the deposited data

Results flagged for a closer look

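Of 143 groups of 5 arrays examined on the log2 scale, over the named member probe sets that were tested, 8 held an array whose gap to the nearest other array exceeded Dixon's limit of 0.71 of the group's range. Chance gives about 1 in 20 such groups. For Ccl11, WF 1 read 54.5 against 100.8 to 109.2 in the other WF arrays, and F1 3 read 26.7 against 56.5 to 71.3 in F1. For Cxcl13, F1 2 read 1269.5 against 202.1 to 268.4. A Cxcr4 probe set read 524.9 in F1 4 against 253.8 to 311.9, and an Il15 probe set 94 in WF 3 against 150.8 to 179. For Il1r2, ACI 2 read 255.6 against 108.5 to 134.5 in ACI, and WF 2 read 55.7 against 118.3 to 147.1 in WF. For Il6st, Cop 2 read 324.3 against 268.4 to 281.5 in Cop.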

How the results depend on the processing

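The single-member results followed under the alternatives were the differences that had passed and the F tests of all 30 tested members. Of these comparisons, 6179 kept their direction and their side of the threshold, 467 no longer passed and none reversed. The 15 that newly passed were F tests, since differences that had not passed were not followed one by one and enter only the counts that follow. The count of members passing the F test, 21, ranged from 17 to 22 when an array was left out. The called members were 1 in WF, 8 in Cop, 7 in F344, 5 in ACI, 7 in BUF/N and 7 in F1, and 4 between Cop and F344. Leaving out an array gave 0 to 2 in WF, 2 (without Cop 1) to 9 (without BUF/N 1) in Cop, 3 (without F344 2) to 8 in F344, 4 (without ACI 2) to 6 in ACI, 4 (without BUF/N 3) to 10 (without WF 1) in BUF/N, 4 (without F1 3) to 10 (without F1 4) in F1, and 1 (without Cop 1, Cop 2, Cop 4, F344 3, F344 4 or F344 5) to 4 between Cop and F344.

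The WF count was 0 with the floor at the 10th or the 40th percentile, with an offset of 50 in place of the floor, with no filter and with a filter of 15 arrays. It was 2 under quantile normalization, 4 with array weights, with F1 2 and F1 3 left out together and with the pools added, 3 without ACI 2 and ACI 5, and 4 without all 4 of these arrays, a setting chosen after seeing the data. With no filter, which tests more probe sets, the Cop count was 5 and that between Cop and F344 was 1. Centring each array on its median also gave 5 in Cop, and moved the median of all probe sets in the ACI comparison from 0.058 to -0.111. Array weights gave 11 in F344, 17 in BUF/N and 7 between Cop and F344. The BUF/N count was 11 with the pools added and 11 without the 4 arrays, and the ACI count was 2 without ACI 2 and ACI 5. Apart from the added probe sets and the samples left out, the cause was not tested.

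The replicate numbers did not pair the samples. The median correlation of deviations was -0.016 for the same number and 0.007 for different numbers, and 16 of 75 same-number pairs exceeded 0.1. With the number as a block, 18 members passed the F test and the counts were 8 in Cop, 6 in F344, 5 in ACI, 6 in BUF/N, 1 in WF, 7 in F1 and 4 between Cop and F344. Members near the floor, such as Il13 and Ccl11 in ACI, have differences whose size depends on it.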
